A study of Mus musculus with 6 samples.

Results

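Premature expression of duct differentiation genes was examined in embryonic mouse kidneys that lack beta-catenin in the ureteric bud, over 10 genes of the collecting duct and the urothelium. Members were the probe sets whose platform annotation gives exactly 1 gene symbol and whose symbol is Aqp2, Aqp3, Tjp1, Upk1b, Upk2, Upk3a, Tfcp2l1, Elf5, Hsd11b2 or Trp63. This gave 22 probe sets for all 10 genes, out of 45037 on the array after controls were set aside. There were 3 knockout arrays of Hoxb7-Cre,Gfp;beta-catenin deficient kidneys and 3 arrays of normal kidneys, all of whole kidneys at embryonic day 12.5. In the knockout mice loxP sites flank exons 2 to 6 of the beta-catenin gene (Ctnnb1), and a Cre:Gfp transgene under the Hoxb7 promoter, active in the ureteric bud and its duct derivatives, removes them there, so the mesenchyme, stroma and vessels keep the gene. The labels do not give the genotype or strain of the normal mice or the number of embryos per vial. Kidneys were assigned at random to 3 vials. The samples are called biological replicates, but p-values measure only the spread between these vials. The title and source name of the knockout samples say knockout while their description field reads normal, and directions below follow the titles.

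The ureteric bud is the epithelial tube that branches to form the collecting ducts of the kidney, and its stalk outside the kidney becomes the ureter. Mature collecting ducts hold principal cells, which take up water through aquaporins and sodium through the epithelial sodium channel, and intercalated cells, which move acid and base. The ureter and bladder are lined instead by urothelium, whose surface is tiled by uroplakin proteins. Beta-catenin links cadherins to the cytoskeleton and carries canonical Wnt signals to TCF/LEF factors in the nucleus, and its loss from the duct epithelium has been described in mice as releasing differentiation genes such as Aqp3 and the tight junction protein ZO-1 (Tjp1) too early.

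No duct or urothelium gene passed the test, and most of the 22 probe sets lay near background. Tjp1, Hsd11b2, Tfcp2l1 and Elf5 had a measurable signal in both groups that differed by less than the arrays could resolve. Upk2 and 1 of the 4 Aqp3 probe sets had higher knockout means, without passing after adjustment, and the other 3 Aqp3 probe sets lay at background on every array. Both were set against normal values mostly at background, so the size of the difference is uncertain. On the log2 scale it was 1.50 for Aqp3 and 2.36 for Upk2 as deposited, and 0.55 for Aqp3 and 1.12 for Upk2 with values under 16 set to 16. In the limma fit over all kept probe sets, with Benjamini-Hochberg adjustment and a threshold of 0.05, 0 of the 6 member probe sets that could be tested passed, against 0.581% of the 27022 tested (157, with 103 higher and 54 lower in the knockout). Without the filter on dim signals, 0 of the 22 passed, with a smallest limma adjusted p of 0.264 and 4 at an unadjusted p under 0.05, where 9.06% of the 45037 probe sets were. With the filter, 2 of the 6 were under 0.05 unadjusted, Aqp3 and Upk2, where 11.5% of the 27022 were, and both had passed the filter only through their knockout values. Whole kidneys were measured, so fewer cells of a type and less RNA per cell cannot be told apart.

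The values are MAS5 signals, a linear brightness per probe set from which mismatch signal has been subtracted, so genes without expression scatter widely at the low end. Only probe sets brighter on average than the lowest 40% were tested, which set a filter level of 14.7 on the mean log2 signal over the 6 arrays, back on the linear scale. The 44 probe sets of olfactory receptors, sensory genes taken here as not expected in kidney, served as a second gauge. Their mean signals had a median of 4.0 and a 95th percentile of 11, and 1 of the 44 lay above the filter. Array by array, that 95th percentile was 14.2, 14.2 and 14.3 on knockout arrays 1 to 3 and 17.99, 13.0 and 18.04 on normal arrays 1 to 3. Of the member probe sets, 6 lay above the filter, 1 each for Aqp3, Tjp1, Upk2, Tfcp2l1, Elf5 and Hsd11b2. The other 16 read between 0.3 and 22.8, and 9 of them stayed under the olfactory receptor level on every array.

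**Figure D1:**
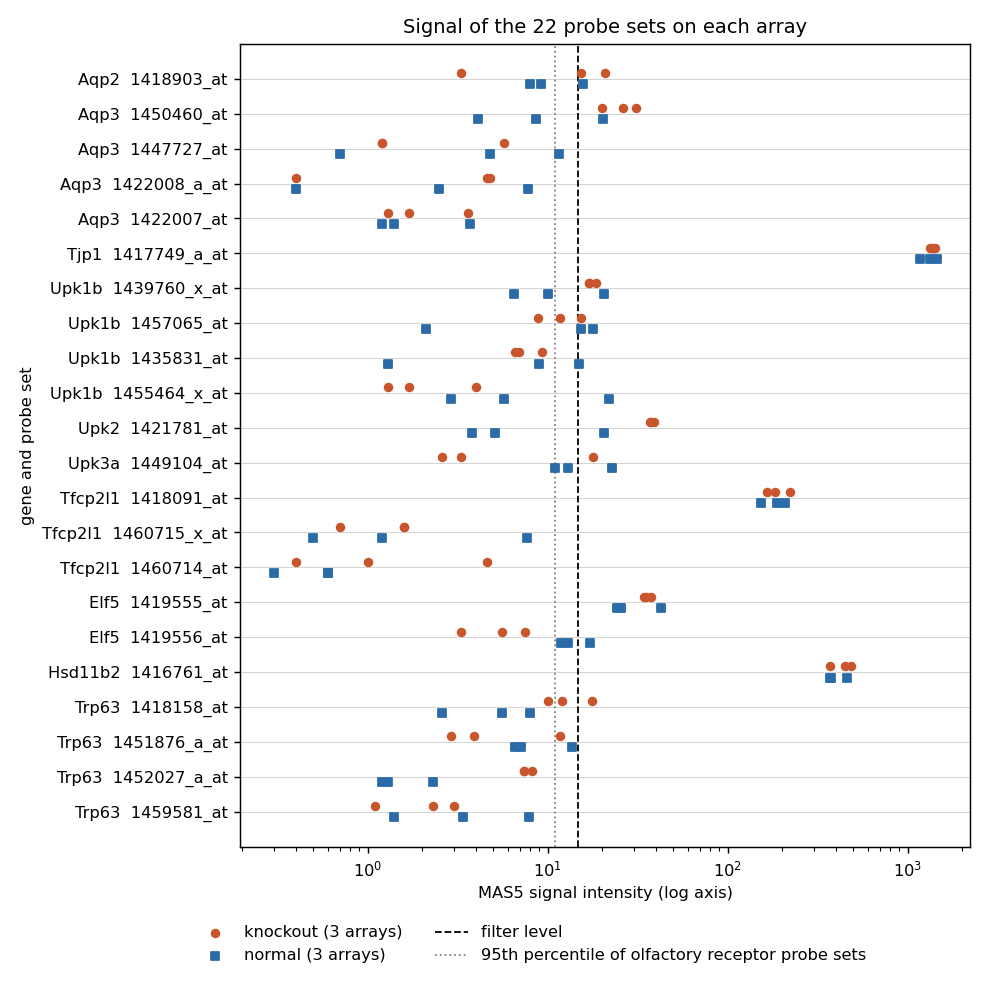
MAS5 signal (log axis) of the 22 probe sets on each of the 6 arrays, with knockout as circles above and normal as squares below each line. The dashed line is the filter level of 14.7 and the dotted line the 95th percentile of olfactory receptor probe sets, 11. Most probe sets straddle or lie left of these lines, and Tjp1, Hsd11b2 and the top Tfcp2l1 probe set lie far to the right with mixed groups.

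The 250 bases upstream of the start of Tjp1 and Aqp3, the genes named above as early signs of duct differentiation, are shown because beta-catenin acts through TCF/LEF factors at such regions. They come from RefSeq on GRCm38.p6, on the minus strand at chr7:65371245-65371494 for Tjp1 and at chr4:41098184-41098433 for Aqp3, printed 5′ to 3′ with any searched motif in capitals.
Aqp3: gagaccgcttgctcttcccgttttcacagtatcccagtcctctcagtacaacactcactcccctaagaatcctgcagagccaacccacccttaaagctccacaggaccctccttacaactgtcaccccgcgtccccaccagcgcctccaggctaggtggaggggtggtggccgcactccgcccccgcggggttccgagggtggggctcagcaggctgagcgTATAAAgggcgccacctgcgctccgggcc
Tjp1: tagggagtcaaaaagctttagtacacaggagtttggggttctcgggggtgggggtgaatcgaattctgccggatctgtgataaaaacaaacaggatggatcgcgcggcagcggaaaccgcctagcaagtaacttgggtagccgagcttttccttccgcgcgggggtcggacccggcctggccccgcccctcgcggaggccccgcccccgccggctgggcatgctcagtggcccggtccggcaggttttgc
The TCF/LEF core was searched on both strands as CTTTG followed by a pair of bases that are each A or T, and neither window holds it. It occurs in 14.8% of all 32851 windows of this length and in 1 of the 7 windows found for 6 of the members, an alternative start of Elf5. The TATA box TATAAA, also searched on both strands, stands in the Aqp3 window with its first base 29 bases before the start. It is missing from the Tjp1 window. At any position it occurs in 12.4% of all windows and in 2 of the 7 member windows, those of Aqp3 and Tfcp2l1. These matches describe the letters alone.

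Tjp1, the scaffold that ties tight junction strands to actin, was measured by 1 probe set. It read 1329, 1425 and 1387 in knockout replicates 1 to 3 and 1174, 1460 and 1327 in normal replicates 1 to 3. The knockout values lie inside the range of the normal ones. The means were 1380 ± 48.7 in knockout kidneys and 1320 ± 143 in normal kidneys (SD, n = 3 each), a log2 difference of 0.07 (SE 0.09; limma adjusted p = 0.809). Its 95% interval ran from -0.14 to 0.28, a fold between 0.906 and 1.22, so a larger change of Tjp1 RNA in the whole organ falls outside the interval. With 1 probe set on whole-kidney RNA, splice forms, protein and the duct epithelium alone were not measured. The exact two-sided permutation p was 0.6, where 0.1 is the smallest that 3 arrays against 3 allow. The sign was not stable: without normal replicate 1 the difference was -0.01.

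The partners of Tjp1 at the junction also gave no passing gene. Of 17 junction genes listed, 15 were on the array with a name and every one lay above the filter. In the knockout 5 were higher and 10 lower. None passed the limma test in either direction, and 0 had an unadjusted p under 0.05. Their median log2 difference was -0.03, beside 0.00 over the 12464 genes tested. The smallest p belonged to Cgn (cingulin), which links ZO proteins to the cytoskeleton, and to the polarity gene Pard6b. Cgn read 65.3, 59.7 and 65.1 in knockout replicates and 113, 65.9 and 69.9 in normal replicates. The groups do not overlap, but normal replicate 1 accounts for most of the distance (log2 difference -0.35, SE 0.23; limma adjusted p = 0.590). Pard6b differed by -0.25 (SE 0.19; limma adjusted p = 0.627), with its other probe set at -0.19.

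Aqp3, the water and glycerol channel of the basolateral membrane of principal cells, had 4 probe sets, of which 1 passed the filter. That one, 1450460_at, read 30.9, 20.0 and 26.3 in knockout replicates 1 to 3 and 20.2, 8.6 and 4.1 in normal replicates 1 to 3. Knockout replicate 2 lay just under normal replicate 1, so the groups overlap. The olfactory receptor level of the array was exceeded on all 3 knockout arrays and on 1 normal array. The means were 25.7 ± 5.47 in knockout kidneys and 10.97 ± 8.31 in normal kidneys (SD, n = 3 each). The log2 difference was 1.50 (SE 0.57, 95% interval from 0.21 to 2.80), with an unadjusted p of 0.0275 and a limma adjusted p of 0.386. The exact two-sided permutation p was 0.2.

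The size of the Aqp3 difference rests on values near the floor. With values under 16 set to 16 it was 0.55, and with a pseudocount of 16 it was 0.67 (limma adjusted p = 0.459 and 0.359). Over the alternatives in which this probe set was tested, its limma adjusted p ranged from 0.135 to 0.511. It fell under the filter, and was not tested, when any single knockout array was left out. The probe set passed the filter through its knockout values, as its normal mean lies under the filter level. The other 3 Aqp3 probe sets were at background, between 0.4 and 5.7 on knockout arrays and between 0.4 and 11.6 on normal arrays. Their log2 differences were -0.75, 0.06 and 0.12. The higher reading rests on 1 of 4 probe sets, and values at background cannot show whether the other 3 share it. Aqp2, the water channel that vasopressin sends to the apical membrane of principal cells, read 15.3, 3.3 and 20.8 in knockout replicates and 8.0, 15.7 and 9.2 in normal replicates. The groups overlap around the filter level. The olfactory receptor level of the array was exceeded on knockout arrays 1 and 3 and on normal array 2, and knockout array 2 had the lowest value of the 6.

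Hsd11b2, the enzyme that inactivates glucocorticoids and so reserves the mineralocorticoid receptor for aldosterone, was clearly detected. It read 451, 371 and 483 in knockout replicates 1 to 3 and 370, 460 and 376 in normal replicates 1 to 3. Each group spanned nearly the same range. The means were 435 ± 57.6 in knockout kidneys and 402 ± 50.6 in normal kidneys (SD, n = 3 each), a log2 difference of 0.11 (SE 0.13, 95% interval from -0.18 to 0.41; limma adjusted p = 0.771).

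Tfcp2l1, a transcription factor of the distal nephron and collecting duct that is needed for both of the duct's cell types, had 3 probe sets. The one above the filter read 222, 183 and 165 in knockout replicates and 187, 209 and 154 in normal replicates. The groups interleave, with means of 190 ± 28.9 in knockout kidneys and 183 ± 27.99 in normal kidneys (SD, n = 3 each). The log2 difference was 0.05 (SE 0.16, 95% interval from -0.31 to 0.42; limma adjusted p = 0.922). The other Tfcp2l1 probe sets, 1460715_x_at and 1460714_at, stayed between 0.4 and 4.6 on knockout arrays and between 0.3 and 7.7 on normal arrays.

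Elf5, an ETS transcription factor of duct principal cells and the mammary gland, had 2 probe sets with opposite signs. The brighter, 1419555_at, read 35.3, 37.6 and 34.4 in knockout replicates and 25.7, 42.4 and 24.3 in normal replicates. The knockout values are tight and lie inside the wide normal range (log2 difference 0.26, SE 0.29, 95% interval from -0.39 to 0.91; limma adjusted p = 0.753). The dimmer, 1419556_at, read 3.3, 7.5 and 5.6 in knockout replicates and 11.8, 12.9 and 17.2 in normal replicates. Here each knockout value lies under each normal one, by -1.41 on the log2 scale (limma adjusted p = 0.527 without the filter). Each of its 6 values stayed under the olfactory receptor level of its array.

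**Figure D2:**
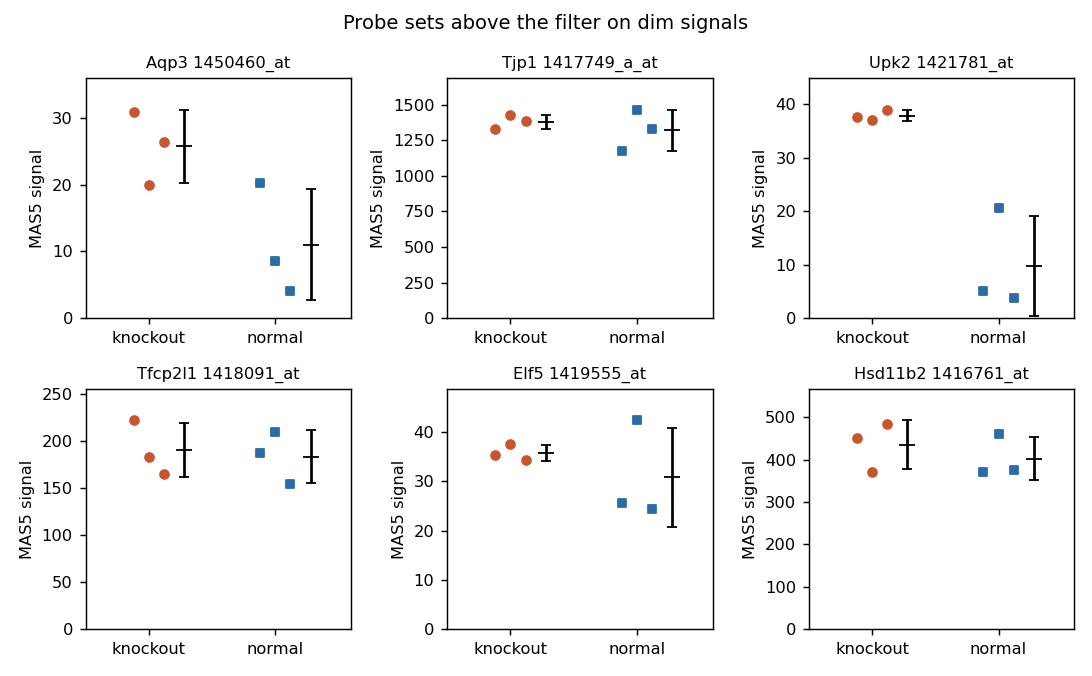
MAS5 signal (linear axis from 0) of the 6 probe sets above the filter, with knockout arrays at left, normal arrays at right and mean ± SD beside each group (n = 3). Upk2 is the panel in which the groups are apart, with knockout arrays between 37.1 and 39.0 and normal arrays between 3.8 and 20.6.

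Upk2 encodes a uroplakin that pairs with Upk1a in the plaques of the urothelial surface. It read 37.6, 37.1 and 39.0 in knockout replicates 1 to 3 and 5.1, 20.6 and 3.8 in normal replicates 1 to 3. Every knockout array lies above every normal array, and normal replicate 2 is the nearest. The olfactory receptor level of the array was exceeded on all 3 knockout arrays and on normal array 2 alone, so the difference is set against normal values mostly at background. The means were 37.9 ± 0.985 in knockout kidneys and 9.83 ± 9.35 in normal kidneys (SD, n = 3 each). The log2 difference was 2.36 (SE 0.60, 95% interval from 1.01 to 3.71), with an unadjusted p of 0.00335 and a limma adjusted p of 0.184.

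Whether Upk2 passes depends on the handling of the arrays. It passed after median centring of the arrays, at 2.37 (limma adjusted p = 0.00309), and without normal replicate 2, at 3.11 (limma adjusted p = 0.0182). Centring barely moved the difference, while the degrees of freedom that limma's prior adds went from 4.95 to 41.8. Upk2 did not pass after quantile normalization, at 2.34 (limma adjusted p = 0.194), or without the intensity trend (limma adjusted p = 0.306). With values under 16 set to 16 the difference was 1.12 (limma adjusted p = 0.0883). Over the alternatives in which Upk2 was tested, its limma adjusted p ranged from 0.00309 to 0.622. It too fell under the filter when any single knockout array was left out. Like that of Aqp3, its probe set passed the filter through the knockout values.

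Upk1a, the partner of Upk2, read 35.4, 45.7 and 30.4 in knockout replicates and 37.7, 8.3 and 11.6 in normal replicates. Normal replicate 1 was as high as the knockout arrays, for a log2 difference of 1.25 (SE 0.53) that stayed short of the threshold (limma adjusted p = 0.423). In the other uroplakin pair, Upk3a had the opposite sign and the Upk1b probe sets were mixed. Upk3a, which completes the second heterodimer, read 2.6, 17.9 and 3.3 in knockout replicates and 22.8, 13.0 and 11 in normal replicates, a log2 difference of -1.47 from overlapping values (limma adjusted p = 0.625 without the filter).

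Upk1b, the tetraspanin partner of Upk3a, had 4 probe sets, none above the filter. The brightest, 1439760_x_at, lay just under it, with 16.9, 18.6 and 16.9 in knockout replicates and 20.6, 10.1 and 6.5 in normal replicates. Its log2 difference was 0.66 and those of the others 0.48, 0.43 and -1.78, so the probe sets disagree in sign. The mean over the 4 Upk1b probe sets was 10.8, 9.63 and 9.08 on knockout arrays 1 to 3 and 18.8, 4.80 and 8.43 on normal arrays 1 to 3. Normal replicate 1 was the highest array for each of the 4. It was also the highest of the 6 arrays for the median of the 16 dim probe sets, at 8.0, where the other arrays lay between 3.1 and 6.3, and its olfactory receptor level, 17.99, was second to that of normal replicate 3.

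Trp63, the p63 factor of basal epithelial cells that is needed to build stratified epithelia and the bladder lining, had 4 probe sets, all under the filter. The probe set 1418158_at read 12, 17.6 and 10.1 in knockout replicates and 8.0, 5.6 and 2.6 in normal replicates. Probe set 1452027_a_at read 8.2, 7.4 and 7.4 in knockout replicates and 2.3, 1.2 and 1.3 in normal replicates. In both, every knockout array lies above every normal one, by 1.40 and 2.32 on the log2 scale (limma adjusted p = 0.567 and 0.384 without the filter). The remaining Trp63 probe sets, 1451876_a_at and 1459581_at, had the opposite sign, at -0.76 and -0.77. With 1 exception, 17.6 in knockout replicate 2, these values of 1418158_at and 1452027_a_at lie under the olfactory receptor level of their array.

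Of the skin or basal epithelium markers, 7 of 8 listed were on the array. Their summed signal ran from 312 to 329 in knockout kidneys and from 277 to 327 in normal kidneys, and most of it was Krt10, at 215, 225 and 244 in knockout replicates and 206, 243 and 221 in normal replicates. The 3 above the filter, Krt10, Krt1 and Krt5, had positive log2 differences, and none passed. For Krt5 the sign depended on the scale. Its log2 difference was 0.10 (SE 0.48), but its mean signal was 19.9 in knockout and 21 in normal kidneys. Among the 4 dim ones, the basal keratin Krt15 read 2.2, 1.6 and 3.5 in knockout replicates and 0.8, 1.2 and 1.0 in normal replicates, with each knockout array above each normal one. Sfn (stratifin), a 14-3-3 protein of stratified epithelia, read 12.6, 13.2 and 3.2 in knockout replicates and 1.1, 1.0 and 3.4 in normal replicates, so knockout replicate 3 overlaps the normal arrays. All these Krt15 and Sfn values lie under the olfactory receptor level of their array. Krt14, the other defining basal keratin, overlapped, with at most 12.1 on knockout arrays and 10.6 on normal arrays. Krt5, a basal keratin of the urothelium and skin, read 17.4, 20.1 and 22.2 in knockout replicates and 23.2, 31.1 and 8.7 in normal replicates. The part of basal cells in the Trp63 values was not tested.

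Over all 22 member probe sets the groups did not overlap for 4, or 18.2%, against 14.7% of the 45037 probe sets on the array. These were Upk2, 2 of Trp63 and, in the lower direction, 1 of Elf5. Among the 16 dim probe sets the difference of mean log2 signals was positive in 8 and negative in 8, and the groups were apart in 3 of them, where 10.1% of all dim probe sets were. Over all 22, the difference was positive in 14 and negative in 8, or 63.6% positive against 49.8% of the 45037 probe sets, and its median was 0.09, beside 0.00 over the array. The 6 above the filter were all positive, but Aqp3 and Upk2 reached it only through their knockout values, so nothing is read from that count. Several of the 22 measure the same gene, and these shares are a description with no test.

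The wider collecting duct list gave 0 passing genes as well. Of 18 listed genes, 17 were on the array with a name, 10 lay above the filter, 4 were higher and 6 lower in the knockout, and the median log2 difference was -0.08, beside 0.00 over the 12464 genes tested. Unadjusted, 3 of the 10 were under 0.05, where 11.7% of the genes tested were. They were Car2, Slc4a1 and Scnn1a, all higher in the knockout.

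Scnn1a, the alpha subunit of the epithelial sodium channel of principal cells, read 28.5, 34.5 and 31.6 in knockout replicates and 18.9, 20.2 and 20.5 in normal replicates. The groups are apart and each is tight. The log2 difference was 0.66 (SE 0.27; limma adjusted p = 0.409). The other subunits did not share it. Scnn1b differed by -0.10 (SE 0.30; limma adjusted p = 0.924) and Scnn1g by -0.70 (SE 0.44; limma adjusted p = 0.575).

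Among the genes under the filter, Foxi1 and Atp6v1b1 were picked after their values were seen. Foxi1, the master transcription factor of intercalated cells, read 16.1, 23.5 and 13.7 in knockout replicates and 8.0, 2.1 and 7.8 in normal replicates. Atp6v1b1, a proton pump subunit of the same cells, read 17.2, 11.2 and 13.5 in knockout replicates and 5.8, 2.9 and 6.8 in normal replicates. Both have knockout arrays above each normal array, as do 7.76% of all probe sets, and both lie near the olfactory receptor level. Other proton pump and transporter genes of these cells, Atp6v0a4 and Slc26a4, stayed at background, at 3.1 or less on knockout arrays and 7.9 or less on normal arrays.

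Car2 and Slc4a1, a carbonic anhydrase and an anion exchanger, belong to intercalated cells and also to red blood cells. Car2 read 321, 201 and 446 in knockout replicates 1 to 3 and 137, 277 and 133 in normal replicates 1 to 3 (log2 difference 0.84, SE 0.34; limma adjusted p = 0.407). Slc4a1 read 243, 150 and 308 in knockout replicates and 72.7, 218 and 93.0 in normal replicates (0.98, SE 0.40; limma adjusted p = 0.410), with its other probe set above the filter at 0.66. Alas2, the erythroid heme synthesis enzyme, read 218, 118 and 333 in knockout replicates and 51.2, 190 and 65.0 in normal replicates. Slc4a1 and Alas2 put the 6 arrays in the same order, with knockout replicate 3 highest and normal replicate 1 lowest, and Car2 follows it but for the lowest pair of arrays. Epb42, a membrane protein of red blood cells that lay under the filter, read 20.9, 17.0 and 21.4 in knockout replicates and 4.5, 14.4 and 6.6 in normal replicates, with each knockout array above each normal one. The erythroid markers summed to between 9916 and 10604 in knockout kidneys and between 9332 and 10275 in normal kidneys, over 4 of 6 listed genes on the array with a name. Nearly all of that sum was the embryonic globin gene Hbb-y, at 0.07 on the log2 scale (limma adjusted p = 0.740). The part of blood cells in the Car2 and Slc4a1 values was not tested.

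**Figure D3:**
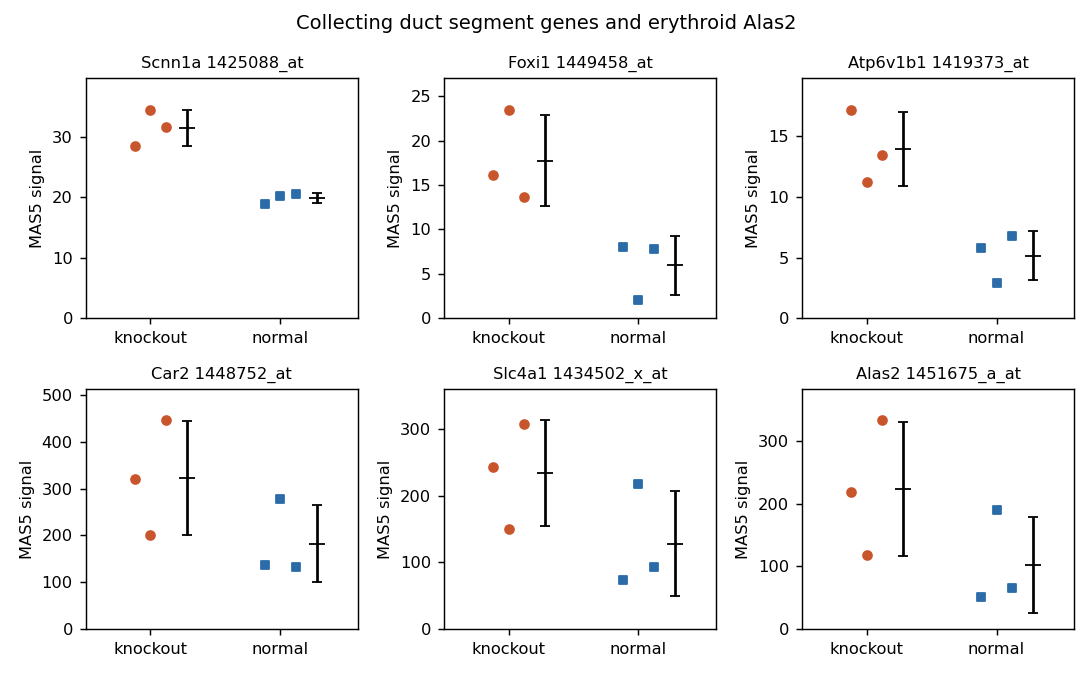
MAS5 signal (linear axis from 0) of 5 collecting duct genes and the erythroid gene Alas2, with knockout arrays at left, normal arrays at right and mean ± SD beside each group (n = 3). Scnn1a, Foxi1 and Atp6v1b1 show groups apart at low signal, and Car2, Slc4a1 and Alas2 share a high normal replicate 2. The 5 duct genes were chosen by their values, and all are higher on average in the knockout. Of the 10 genes of the wider list above the filter, 4 were higher and 6 lower.

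The wider urothelium list had all 15 genes on the array, of which 8 lay above the filter, 4 higher and 4 lower in the knockout, with 0 past the limma test (0.602% of the genes tested passed it). The median log2 difference was -0.09, with a range from -0.39 without normal replicate 3 to 0.09 without normal replicate 1, so its sign was not stable. Upk1a alone had an unadjusted p under 0.05. Of the factors that specify urothelium and duct, Gata3 read 147, 115 and 137 in knockout replicates and 303, 172 and 137 in normal replicates (-0.54, SE 0.26; limma adjusted p = 0.467). The epithelial factor Grhl2 was even, at 0.04 (SE 0.18; limma adjusted p = 0.946). Upk3b, a uroplakin that mesothelium also makes, read 72.0 in normal replicate 1, against 15.9 or less on every other array, the knockout ones included.

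**Figure D4:**
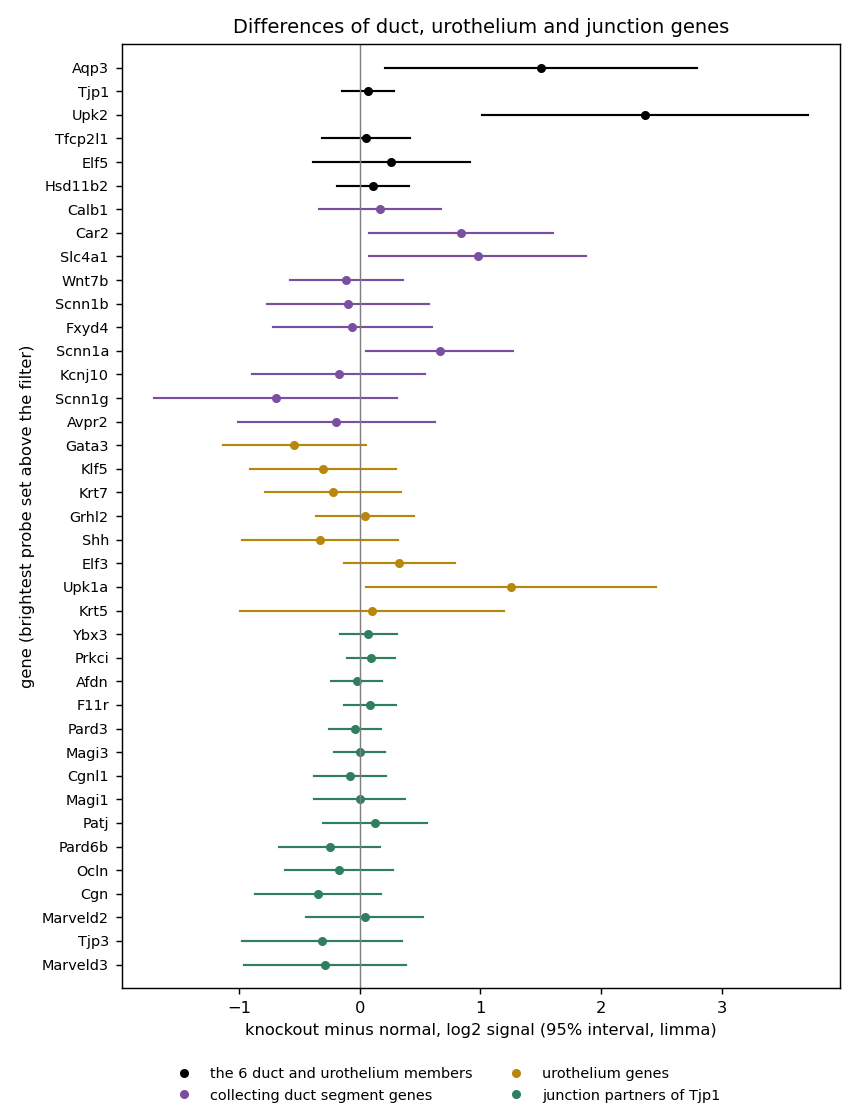
Knockout minus normal log2 signal with its 95% interval (limma, not adjusted) for the 6 members above the filter and the genes above the filter of the collecting duct, urothelium and junction lists. The intervals of Upk2 and Aqp3 are the widest drawn and lie above 0, as do those of Upk1a, Car2, Slc4a1 and Scnn1a. In the adjusted test, 0 of the genes drawn passed.

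Epithelium content and other tissues moved across the arrays as follows. Ctnnb1 itself was not lower, with its brightest probe set at 6777, 6779 and 6586 in knockout replicates and 5707, 6760 and 6549 in normal replicates (log2 difference 0.09; limma adjusted p = 0.695). Where its probes lie relative to the deleted exons is not analysed here. The ureteric epithelium markers on the array, 13 of 14 listed, all lay above the filter, as did the 7 nephron progenitor markers on it. The summed ureteric signal ran from 2943 to 3937 in knockout kidneys and from 3389 to 3900 in normal kidneys, lowest in knockout replicate 2. Of these 13 ureteric markers, 4 were higher and 9 lower in the knockout, with a median log2 difference of -0.05. None passed, and those with an unadjusted limma p under 0.05 were Sox9 at 0.50, Lhx1 at -0.43 and Emx2 at -0.54. The share under 0.05 over all genes tested was 11.7%. Skeletal muscle markers summed to 900, 4455 and 423 in knockout replicates 1 to 3, against 348 to 423 in normal kidneys. Chromaffin or neural markers summed to 944, 401 and 179 in knockout replicates and to 1222, 124 and 283 in normal replicates. Macrophage markers summed to between 662 and 1016 in knockout kidneys and between 342 and 713 in normal kidneys. Smooth muscle markers summed to between 546 and 1458 in knockout kidneys and between 457 and 853 in normal kidneys. Most of that sum was Acta2, at 480, 1224 and 351 in knockout replicates and 595, 293 and 460 in normal replicates. Stroma markers summed to between 6430 and 8167 in knockout kidneys and between 6617 and 8740 in normal kidneys. The markers with the smallest p in these lists, none of which passed the limma test, had the following log2 differences. They were Actc1 at 1.65 and Myh3 at 2.26 for skeletal muscle, Cx3cr1 at 0.93 and Csf1r at 0.73 for macrophages, Alas2 at 1.25 for erythroid cells, and Pdgfrb at -0.33 and Meis1 at 0.30 for stroma. The others were Osr1 at 0.61 for nephron progenitors, Acta2 at 0.45 and Tshz3 at 0.14 for smooth muscle, Krt1 at 0.33 and Krt10 at 0.03 for skin, and Stmn2 at 0.42 and Dbh at 1.05 for chromaffin or neural cells. Osr1 does not stand for its list: of the 7 nephron progenitor markers, 3 were higher and 4 lower in the knockout, with a median of -0.18. Myh11 and Cnn1 are smooth muscle genes that mark a muscular ureter or bladder wall. Myh11 read 5.4, 3.2 and 0.5 in knockout replicates and 45.7, 11.9 and 3.5 in normal replicates. Only its value in normal replicate 1 exceeded the olfactory receptor level of its array. Cnn1 stayed at or under 4.9 on knockout arrays and 4.6 on normal arrays. The part of these tissues in the values of the duct and urothelium genes was not tested.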

How the data were processed

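Deposited values were one linear intensity per probe set and array, which the authors computed with MAS5, per the submitters' processing notes. For its version, detection calls and settings: not given in the sources used here. Array medians of log2 signal spanned 0.37, under the limit of 0.5, so no further scaling was applied. Before log2, 15 zeros were replaced by 1.7 (10th percentile of the positive values). Of 45101 probe sets, 64 controls were left out, and 27022 lay above the filter. The group comparison used limma 3.58.1 under R 4.3.3 (eBayes with intensity trend, Benjamini-Hochberg over all kept probe sets). The script was tested on simulated data. Differences are knockout minus normal of mean log2 signal, and SE and intervals are limma's. For a dim probe set the fit without the filter is quoted. With 3 arrays per group, precision is limited.

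Symbols came from the platform annotation, and those of the related lists were updated through gene identifiers. Of the non-control probe sets 34945 had 1 symbol, 932 several and 9160 none here. Named are all members and, of each related or marker list, up to 4 genes with an unadjusted p under 0.05 or else the 2 with the smallest p, by brightest kept probe set. A few further genes were picked with their values in view. The members and lists were chosen with earlier results of these data known. Replicate numbers did not pair the arrays: the same-numbered correlations of deviations were 0.0827, -0.108 and -0.201.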

Additional observations from a re-analysis of the deposited data

How the results depend on the processing

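The count of probe sets passing was 157. It moved by over 1.5 times to 434 with median centring, 41 without the intensity trend, 253 at an adjusted p of 0.1 and 37 without normal replicate 1 and knockout replicate 2 together, a fit chosen after seeing the data. Leaving out 1 array at a time gave 47 to 149, with 55, 59 and 47 without knockout replicates 1 to 3 and 95 without normal replicate 3. With the replicate number as a block it was 109, and the block changed no call among the members. With median centring the degrees of freedom that limma's prior adds were 41.8, against 4.95 with the deposited values. The number of member probe sets passing stayed at 0 except for 1, Upk2, with median centring and without normal replicate 2, a leave-one-array range of 0 to 1. Over the 6 members above the filter, 100 values under alternatives gave 94 with the same direction and call, 2 for Upk2 that passed and 4 reversed. Those reversed were the Tjp1 1417749_a_at log2 difference, from -0.013 without normal replicate 1 to 0.14 without normal replicate 2 and at -0.037 without the pair of arrays, and that of Tfcp2l1 1418091_at, from -0.069 without normal replicate 3 to 0.15 without normal replicate 2 and at -0.063 without knockout replicate 1. Upk2 ranged from 1.12 to 3.11 and Aqp3 from 0.55 to 1.91 where their probe sets stayed above the filter, and neither did so with the filter at the 50th percentile or when a single knockout array was left out, nor did Aqp3 without normal replicate 1 or without the pair of arrays. Upk2 stayed above it without that pair, at 2.11 (limma adjusted p = 0.622). Averaging the probe sets of each gene left 2 members above the filter, Tjp1 and Hsd11b2. Leaving out 1 array at a time moved the median log2 difference of the collecting duct list between -0.21 and 0.06 and that of the junction list between -0.09 and 0.01, so neither had a stable sign.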
